A study of Drosophila melanogaster with 6 samples.

Results

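The citric acid cycle enzymes followed here are 10 genes of central carbon metabolism, measured in RNA sequencing libraries of infected adult male Drosophila melanogaster: kdn, mAcon1, Idh3a, Idh3b, Idh3g, Scsalpha1, ScsbetaA, Fum1, Mdh1 and Mdh2. They were taken by FlyBase symbol from the deposited table of gene levels and are 10 of the 17558 genes in that table. All 10 were among the 12251 genes with a mean of at least 1 FPKM (fragments per kilobase, scaled to the size of the library) that were tested. The control group of 3 libraries had the genotype Gal80ts; Tub-Gal4/P{CaryP}attP40, a ubiquitous driver held back by a temperature-sensitive Gal80 and placed over an empty landing site. The other 3 libraries had the genotype Gal80ts; Tub> CR46018, in which the same driver was joined to the long non-coding RNA CR46018. Both groups were males collected 12 h after Micrococcus luteus, a Gram-positive bacterium, had been injected, so the Gal80ts, the driver and the infection are common to all libraries and no uninfected level stands beside these values. The labels name no tissue, age or shift temperature, and the effect of CR46018 cannot be told apart from other differences between the genotypes.

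The citric acid cycle runs in the mitochondrial matrix, where the acetyl group of acetyl-CoA is joined to oxaloacetate and oxidised in steps that load electrons onto NADH and FADH2 for the respiratory chain. Its intermediates are also drawn off for fatty acid and amino acid synthesis and have to be replaced. In adult flies the pathway is known for its high capacity in flight muscle, a tissue packed with mitochondria, and in the fat body it feeds lipid synthesis. In RNA from many tissues at once, fewer cells of a type and less RNA per cell cannot be told apart.

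Between 17039497 and 19425518 reads per library were recovered from the deposited values. The overexpressed RNA was close to undetected: CR46018 had 3, 1 and 0 reads in overexpression replicates 1 to 3, which is 0.264, 0.0902 and 0 FPKM, against 0 reads throughout the control group, which allows up to 0.0971 FPKM (3 reads over the group, counting error only). Replicates of a group differed by 7.69 to 10.01 chi-square units per degree of freedom, so no library was a copy of another. Of all genes tested, 300 were higher and 773 were lower in the overexpression group at a limma adjusted p under 0.05. Whether replicates were separate fly cohorts is not stated in the labels; the p-values therefore speak of the spread among 6 libraries, which may be technical.

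Of the 10 enzyme genes, 4 fell in flies carrying CR46018: Mdh1, Mdh2, Scsalpha1 and Fum1. Their levels were between 76.2% and 85.8% of the control mean. None of the 10 rose. The other 6, kdn, mAcon1, Idh3a, Idh3b, Idh3g and ScsbetaA, did not pass the test. Over all genes tested, 8.76% passed in either direction, 6.31% lower and 2.45% higher. The groups of 3 libraries did not overlap, with overexpression lower, in 6 of the 10 enzyme genes, against 16.2% of all genes tested, and in 0 of the 10 with overexpression higher, against 12.2% of all genes tested. The median log2 fold change was -0.21 over the 10 enzyme genes and -0.0024 over all genes tested. Abundance bears on this comparison, because 19.7% of the 694 genes with mean levels in the range of the 10 (91.3 to 406.7 FPKM) were called lower and 3.89% higher, with a median log2 fold change of -0.05.

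Scaling bears on it too. The summed FPKM of the 10 genes was 2339.4, 2497.5 and 2195.6 in control replicates 1 to 3 and 2014.1, 2065.3 and 2135.4 in overexpression replicates 1 to 3, so the groups did not overlap. As a share of all FPKM in the library, however, the sums were 0.33%, 0.354% and 0.316% in controls and 0.301%, 0.319% and 0.324% in overexpression, and here the groups did overlap. The deposited FPKM added up to less in every overexpression library (646862 to 668227) than in any control library (694593 to 708815). With all libraries rescaled to a common FPKM total, 1 of the 10 genes, Mdh1, was called lower, the median of the 10 was -0.11 and the median of all genes was 0.08.

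**Figure D1:**
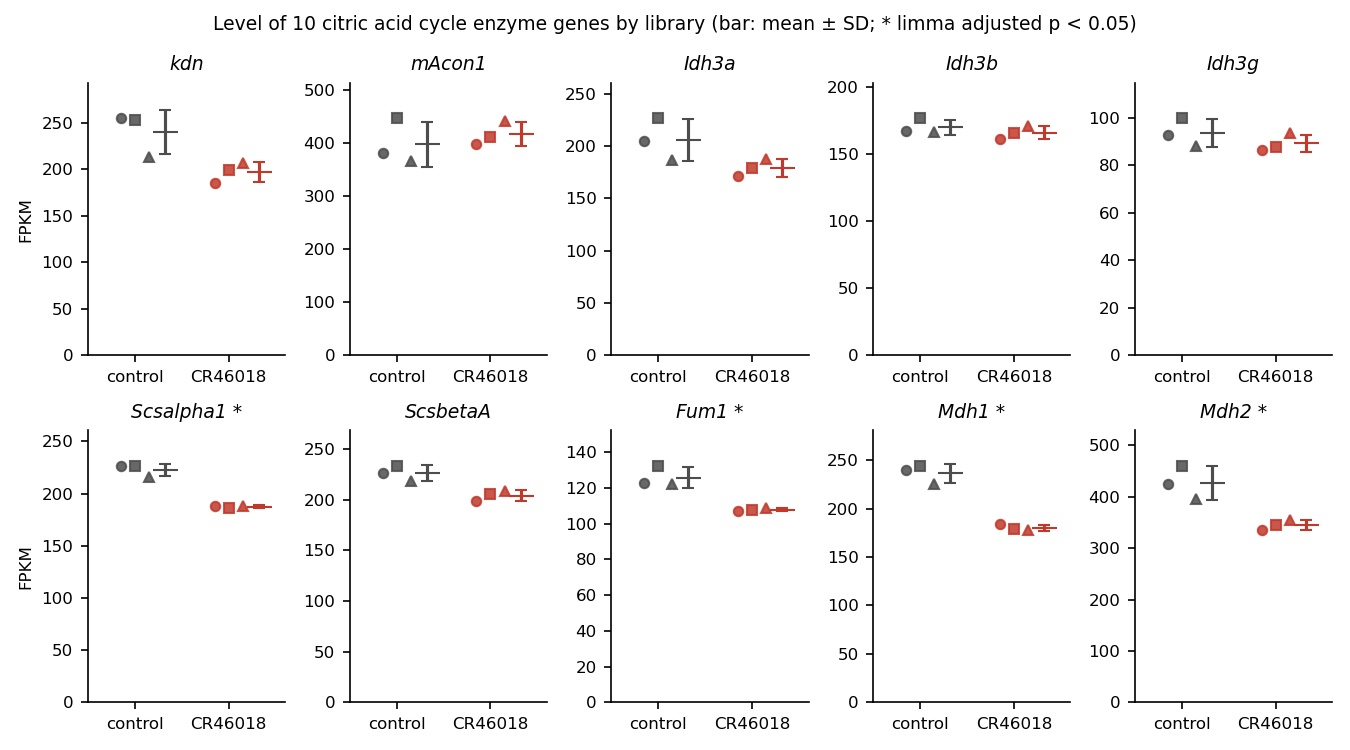
Level (FPKM, linear axis from 0) of each of the 10 enzyme genes in the 3 control and 3 overexpression libraries, 1 point per library, with the mean and SD of each group as a bar. The overexpression points lie wholly under the control points for Mdh1, Mdh2, Scsalpha1, Fum1, kdn and ScsbetaA, and the groups overlap for mAcon1, Idh3a, Idh3b and Idh3g; asterisks mark the 4 genes past the limma adjusted p of 0.05.

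Entry of carbon into the cycle is catalysed by citrate synthase, which joins acetyl-CoA to oxaloacetate and is encoded by kdn (FBgn0261955, dm6 chromosome X, 6350629 to 6361323, plus strand). The level of kdn was 254.6, 253.5 and 212.8 FPKM in control replicates 1 to 3 and 185.3, 199.7 and 206.4 FPKM in overexpression replicates 1 to 3. Control replicate 3 lay well under the other controls and just above the highest overexpression library, so the groups did not overlap, by a small margin. The means were 240.3 ± 23.8 and 197.1 ± 10.8 FPKM (SD, n = 3), and the log2 fold change of -0.28 ± 0.08 (SE, 95% interval -0.47 to -0.09) missed the threshold at a limma adjusted p of 0.0736. Without control replicate 3 it passed, at -0.37 and a limma adjusted p of 0.0213. It also passed with limma-voom on the recovered reads, at an adjusted p of 0.0203. These were the only 2 of 16 alternatives in which kdn passed. The highest limma adjusted p was 0.205, without control replicate 1, and at a common FPKM total it was 0.163.

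The second enzyme is aconitase, which isomerises citrate to isocitrate through an iron-sulfur cluster. Its main mitochondrial gene, mAcon1 (FBgn0010100, chromosome 2L, 21168570 to 21173185, plus strand), was the only one of the 10 with a fold change above 0. It measured 381.2, 445.6 and 365.1 FPKM in controls and 397.5, 410.5 and 440.3 FPKM in overexpression. The control libraries spanned the overexpression libraries on both sides. The log2 fold change was 0.07 ± 0.08 (SE, 95% interval -0.12 to 0.26; limma adjusted p = 0.67).

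NAD-dependent isocitrate dehydrogenase, which makes 2-oxoglutarate and the first NADH of the cycle, is built of an alpha subunit that carries catalysis and of beta and gamma subunits that are regulatory in mammals. Idh3a, the alpha subunit (FBgn0027291, chromosome X, 19518428 to 19521810, minus strand), was at 204.6, 226.3 and 186.5 FPKM in controls and at 171.1, 178.6 and 187.8 FPKM in overexpression. Overexpression replicate 3 just exceeded control replicate 3, and the other overexpression libraries lay under every control. The log2 fold change was -0.20 ± 0.08 (SE; limma adjusted p = 0.169).

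The beta subunit gene, Idh3b (FBgn0038922, chromosome 3R, 22016391 to 22019382, minus strand), stayed within a narrow band: 167.1, 176.3 and 166.3 FPKM in controls against 161.2, 165.2 and 170.9 FPKM in overexpression. For the gamma subunit gene, Idh3g (FBgn0039358, chromosome 3R, 25680845 to 25683780, plus strand), the levels were 92.5, 99.6 and 87.9 FPKM in controls and 86.5, 87.8 and 93.3 FPKM in overexpression. Groups overlapped for both genes, and the intervals of the log2 fold change included 0. Idh3b gave -0.04 ± 0.05 (limma adjusted p = 0.741) and Idh3g gave -0.06 ± 0.06 (limma adjusted p = 0.596), but the sign is not fixed: at a common FPKM total the values were 0.06 and 0.03. In Idh3g, 158 bp of the exons are shared with RpL27 on the opposite strand, and whether reads were counted by strand is not stated.

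Succinyl-CoA synthetase makes the only nucleotide triphosphate formed directly in the cycle and pairs an alpha subunit with a beta subunit that sets ADP or GDP as the acceptor. Scsalpha1, the alpha subunit (FBgn0004888, chromosome 3L, 3814211 to 3818383, plus strand), was at 226.7, 226.0 and 216.3 FPKM in controls and at 188.6, 186.0 and 188.2 FPKM in overexpression. Both groups were tight and far apart, with means of 223.0 ± 5.79 and 187.6 ± 1.4 FPKM (SD, n = 3). Scsalpha1 fell by 0.25 ± 0.05 on the log2 scale (SE, 95% interval -0.35 to -0.14; limma adjusted p = 0.0159). The call was lost without control replicate 1 (adjusted p = 0.066), control replicate 2 (0.0549) or overexpression replicate 3 (0.063), and at a common FPKM total (0.0647).

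ScsbetaA, the ADP-forming beta subunit (FBgn0037643, chromosome 3R, 8938724 to 8943027, plus strand), measured 226.8, 233.5 and 218.2 FPKM in controls and 198.4, 205.4 and 208.5 FPKM in overexpression. Every overexpression library was under every control, yet the log2 fold change of -0.15 ± 0.05 (SE, 95% interval -0.26 to -0.03) did not pass (limma adjusted p = 0.119). Of its exons, 74 bp are overlapped by CG11964 on the opposite strand.

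Fumarase, which hydrates fumarate to malate, is encoded by Fum1 (chromosome X, 6678424 to 6681845, plus strand). The table carries the older identifier FBgn0028336, which was matched to Fum1 by its exonic length of 1861 bp, so the identity of this row rests on that length. Levels were 122.6, 132.4 and 122.0 FPKM in controls and 107.1, 107.8 and 108.7 FPKM in overexpression, with no overlap and an overexpression SD of 0.787 FPKM (n = 3). Fum1 fell by 0.22 ± 0.05 on the log2 scale (SE, 95% interval -0.33 to -0.10; limma adjusted p = 0.0372). This call depended on having all 6 libraries: leaving out control replicate 1, 2 or 3 gave adjusted p of 0.0826, 0.0999 and 0.0541, and leaving out overexpression replicate 1, 2 or 3 gave 0.085, 0.0888 and 0.109. It was also lost at a common FPKM total (0.153). Other genes, Fum2 on the same strand and ND-ASHI on the opposite strand, overlap 156 bp of its exons.

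Malate dehydrogenase regenerates oxaloacetate and closes the cycle. Flies, like mammals, have a mitochondrial enzyme, encoded by Mdh2, and a cytosolic enzyme, encoded by Mdh1, which acts outside the cycle proper and works with it through the malate-aspartate shuttle that carries reducing power into mitochondria. Mdh1 (FBgn0262782, chromosome 2L, 10393774 to 10396332, minus strand) measured 239.6, 244.1 and 225.6 FPKM in controls and 183.8, 178.9 and 177.5 FPKM in overexpression. The gap between the groups was far wider than the spread within either, with means of 236.4 ± 9.66 and 180.1 ± 3.27 FPKM (SD, n = 3). These levels rested on 5093 to 6022 recovered reads per control library and 4366 to 4873 per overexpression library. Mdh1 fell by 0.39 ± 0.05 on the log2 scale (SE, 95% interval -0.51 to -0.27; limma adjusted p = 0.00388), to 76.2% of control, the lowest percentage among the 10 genes. It passed in each of the 16 alternative settings tried, with adjusted p from 0.000257 to 0.0202.

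For Mdh2 (FBgn0262559, chromosome 3R, 18226396 to 18228718, plus strand) the levels were 423.8, 460.2 and 394.9 FPKM in controls and 334.5, 345.5 and 353.9 FPKM in overexpression. The groups did not overlap, and the controls were more scattered (426.3 ± 32.7 FPKM) than the overexpression libraries (344.6 ± 9.7 FPKM; SD, n = 3). Mdh2 fell by 0.30 ± 0.07 on the log2 scale (SE, 95% interval -0.45 to -0.15; limma adjusted p = 0.0275), to 80.8% of control. The call held without control replicate 3 (adjusted p = 0.0222). It was lost without control replicate 1 (0.077) or 2 (0.0715), without overexpression replicate 1 (0.0727), 2 (0.0682) or 3 (0.0726), and at a common FPKM total (0.0761).

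**Figure D2:**
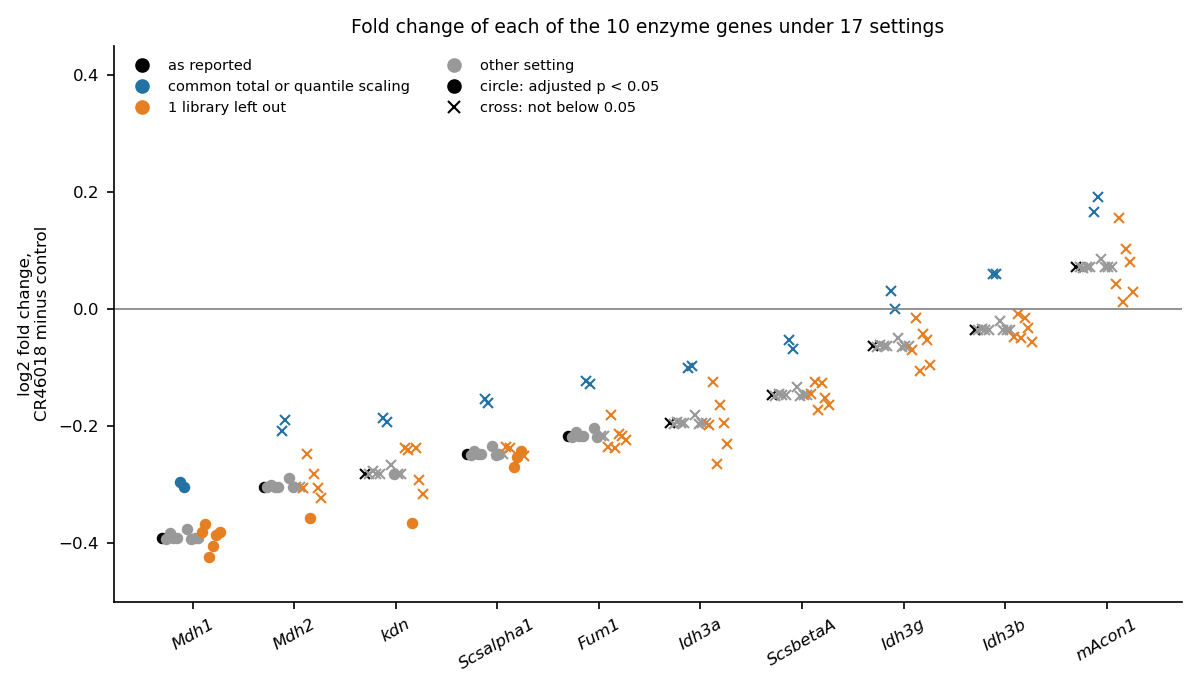
Log2 fold change (overexpression minus control) of each of the 10 enzyme genes under the reported setting and 16 alternatives, 1 mark per setting; circles passed the limma adjusted p of 0.05, crosses did not, and colours separate the kinds of setting. Mdh1 keeps filled circles between -0.42 and -0.30, while Fum1, Mdh2, Scsalpha1 and kdn show both marks, and scaling to a common total or to equal quantiles shifts every gene upward.

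The order of the 10 levels was much the same in both groups at its lower end. In controls it ran from Mdh2 and mAcon1 (426.3 and 397.3 FPKM, ranges overlapping) through kdn, Mdh1, ScsbetaA, Scsalpha1 and Idh3a (240.3 down to 205.8 FPKM, each overlapping the next) to Idh3b, Fum1 and Idh3g (169.9, 125.7 and 93.3 FPKM), which did not overlap their neighbours. In overexpression Idh3b, Fum1 and Idh3g again closed the order, at 165.8, 107.9 and 89.2 FPKM. At the top, mAcon1 was first at 416.1 FPKM and its lowest library lay above the highest Mdh2 library. The ratio of mAcon1 to Mdh2 was 0.899, 0.968 and 0.925 in controls and 1.188, 1.188 and 1.244 in overexpression, a ratio picked after these levels had been seen and given without a test. Mdh1 moved from the fourth place to the sixth, where its range overlapped that of Idh3a.

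Levels of related genes were compared within each library, since FPKM is per length. The pairs were subunits of the same enzyme, the alternative beta subunits of succinyl-CoA synthetase, and the cytosolic and mitochondrial malate dehydrogenases. The ratio of Idh3b to Idh3a was 0.817, 0.779 and 0.892 in controls and 0.943, 0.925 and 0.91 in overexpression. For Idh3g to Idh3a it was 0.452, 0.44 and 0.471 against 0.506, 0.491 and 0.497. The ratio of Scsalpha1 to ScsbetaA was 0.999, 0.968 and 0.992 in controls and 0.951, 0.906 and 0.903 in overexpression. In none of these 3 ratios did the groups overlap, and each gave an exact two-sided permutation p of 0.1, the smallest that 3 against 3 libraries allow, or 0.167 after Benjamini-Hochberg adjustment over 5 ratios. Mdh1 to Mdh2 averaged 0.556 ± 0.022 in controls and 0.523 ± 0.024 in overexpression (SD, n = 3; exact permutation p = 0.2, adjusted 0.25), and ScsbetaG to ScsbetaA averaged 0.114 ± 0.01 and 0.123 ± 0.006 (exact permutation p = 0.3, adjusted 0.3), both with overlapping groups.

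**Figure D3:**
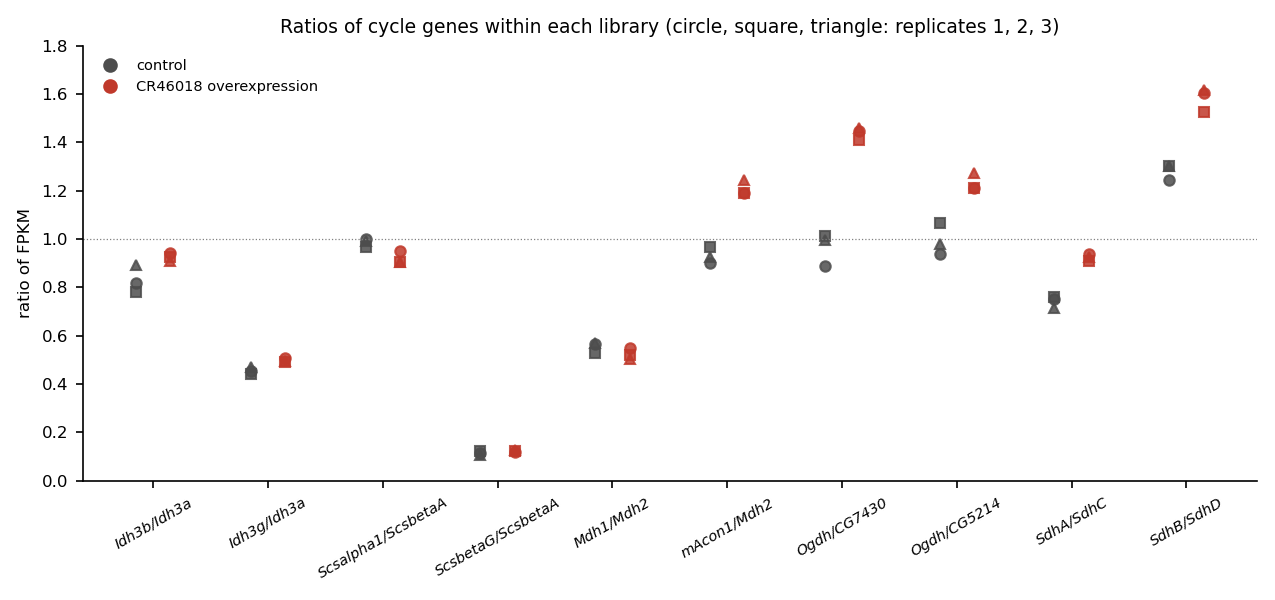
Ratio of the FPKM of 2 cycle genes within each library (linear axis from 0), with control in grey, overexpression in red and a symbol for each replicate. The control and overexpression points separate for Idh3b/Idh3a, Idh3g/Idh3a and Scsalpha1/ScsbetaA and mix for ScsbetaG/ScsbetaA and Mdh1/Mdh2; the 5 ratios on the right were chosen after the values were seen and carry no test.

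The remaining subunits of cycle enzymes did not move in 1 direction. Of 8 such genes, 1 rose, 1 fell and 6 did not pass, where 2.45% of all genes tested were called higher and 6.31% lower. The median log2 fold change of the 8 was -0.03, with 3 above 0 and 5 below. Ogdh, the E1 subunit of the 2-oxoglutarate dehydrogenase complex that follows isocitrate dehydrogenase, was at 177.0, 208.1 and 179.4 FPKM in controls and 222.8, 230.2 and 236.0 FPKM in overexpression. It rose by 0.29 ± 0.07 on the log2 scale (SE; limma adjusted p = 0.042), and the call held without control replicate 2 and was lost with any other single library left out (highest adjusted p 0.139). CG7430, to which RefSeq gives the synonym E3, is listed here for the dihydrolipoyl dehydrogenase that this complex shares with pyruvate dehydrogenase. It was at 199.4, 205.4 and 180.3 FPKM in controls and 154.2, 163.3 and 161.6 FPKM in overexpression. CG7430 fell by 0.29 ± 0.06 (SE; limma adjusted p = 0.0275), and the call held without control replicate 3 and was lost with any other single library left out (highest adjusted p 0.093). CG5214, to which RefSeq gives the synonym alpha-KGDHC, averaged 189.1 ± 5.94 and 186.8 ± 3.3 FPKM (SD, n = 3; limma adjusted p = 0.878). The ratio of Ogdh to CG7430 was 0.888, 1.013 and 0.995 in controls and 1.445, 1.41 and 1.46 in overexpression, and that of Ogdh to CG5214 was 0.939, 1.066 and 0.978 against 1.21, 1.209 and 1.271. Both ratios were chosen after the values were seen.

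Succinate dehydrogenase, which oxidises succinate and is also complex II of the respiratory chain, has a catalytic flavoprotein (SdhA), an iron-sulfur subunit (SdhB) and membrane anchors (SdhC and SdhD). SdhA was at 210.0, 236.7 and 209.5 FPKM in controls and 256.0, 246.2 and 258.5 FPKM in overexpression, without overlap, and its log2 fold change of 0.21 ± 0.06 missed the threshold (SE; limma adjusted p = 0.0742; range over the 16 alternatives 0.0166 to 0.215, past it in 4). SdhB gave 0.16 (limma adjusted p = 0.214), SdhC -0.10 (0.327) and SdhD -0.14 (0.246). The values thus lay above 0 for the catalytic pair and under 0 for the anchors, except that SdhC was at 0.02 with equal quantiles. The ratio of SdhA to SdhC was 0.751, 0.761 and 0.715 in controls and 0.937, 0.909 and 0.924 in overexpression, and that of SdhB to SdhD was 1.243, 1.303 and 1.3 against 1.602, 1.526 and 1.614, again chosen after the values were seen. ScsbetaG, the GDP-forming partner of Scsalpha1, was much less abundant than ScsbetaA, at 25.8 ± 3.05 and 25.1 ± 1.84 FPKM (SD, n = 3; limma adjusted p = 0.869).

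Of 15 listed enzymes that feed the cycle or draw from it, 14 were tested, 6 fell and none rose, against 6.31% of all genes called lower. The other 8 did not pass. The median log2 fold change of the 14 was -0.20, and at a common FPKM total it was -0.10 and 2 of the 14 were called lower. Got2, the mitochondrial aspartate aminotransferase of the malate-aspartate shuttle, was at 138.9, 149.7 and 147.0 FPKM in controls and 107.7, 103.7 and 98.1 FPKM in overexpression. It fell by 0.49 ± 0.06 on the log2 scale (SE; limma adjusted p = 0.00209), and it passed in each of the 16 alternatives. Its cytosolic counterpart, Got1, was at 152.3, 149.5 and 158.3 FPKM in controls and 134.5, 135.7 and 130.0 FPKM in overexpression and fell by 0.20 ± 0.05 (SE; limma adjusted p = 0.0419). The Got1 call was lost with each library left out in turn (adjusted p 0.0734 to 0.151).

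Pyruvate carboxylase (PCB), which replaces oxaloacetate, fell from 75.5 ± 6.74 to 57.4 ± 4.16 FPKM (SD, n = 3; limma adjusted p = 0.0235). The lipogenic enzyme ATP citrate lyase (ATPCL), which cleaves exported citrate to acetyl-CoA, fell from 85.1 ± 5.97 to 68.8 ± 3.29 FPKM (SD, n = 3; limma adjusted p = 0.03). Mpc1, a subunit of the mitochondrial pyruvate carrier, fell from 171.8 ± 4.45 to 145.3 ± 9.5 FPKM (SD, n = 3; limma adjusted p = 0.0441), and Men, an NADP-dependent malic enzyme, from 145.2 ± 4.48 to 123.6 ± 5.17 FPKM (SD, n = 3; limma adjusted p = 0.0338). With 1 library left out, the PCB call held only without control replicate 3 or overexpression replicate 1 (highest adjusted p otherwise 0.0829) and the ATPCL call only without control replicate 3 or overexpression replicate 2 (0.0998). The Mpc1 call held only without overexpression replicate 2 (0.15) and the Men call only without control replicate 3 (0.117). The pyruvate dehydrogenase genes Pdha, Pdhb and muc, its kinase Pdk, Idh and Men-b did not pass (limma adjusted p 0.0705 to 0.228). In each the groups did not overlap, with overexpression lower, as in 16.2% of all genes tested. The groups overlapped for the pyruvate dehydrogenase phosphatase Pdp and glutamate dehydrogenase (Gdh) (limma adjusted p = 0.879 and 0.899). The citrate carrier gene sea, at 0.371 and 0.473 FPKM, was too low to be tested.

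**Figure D4:**
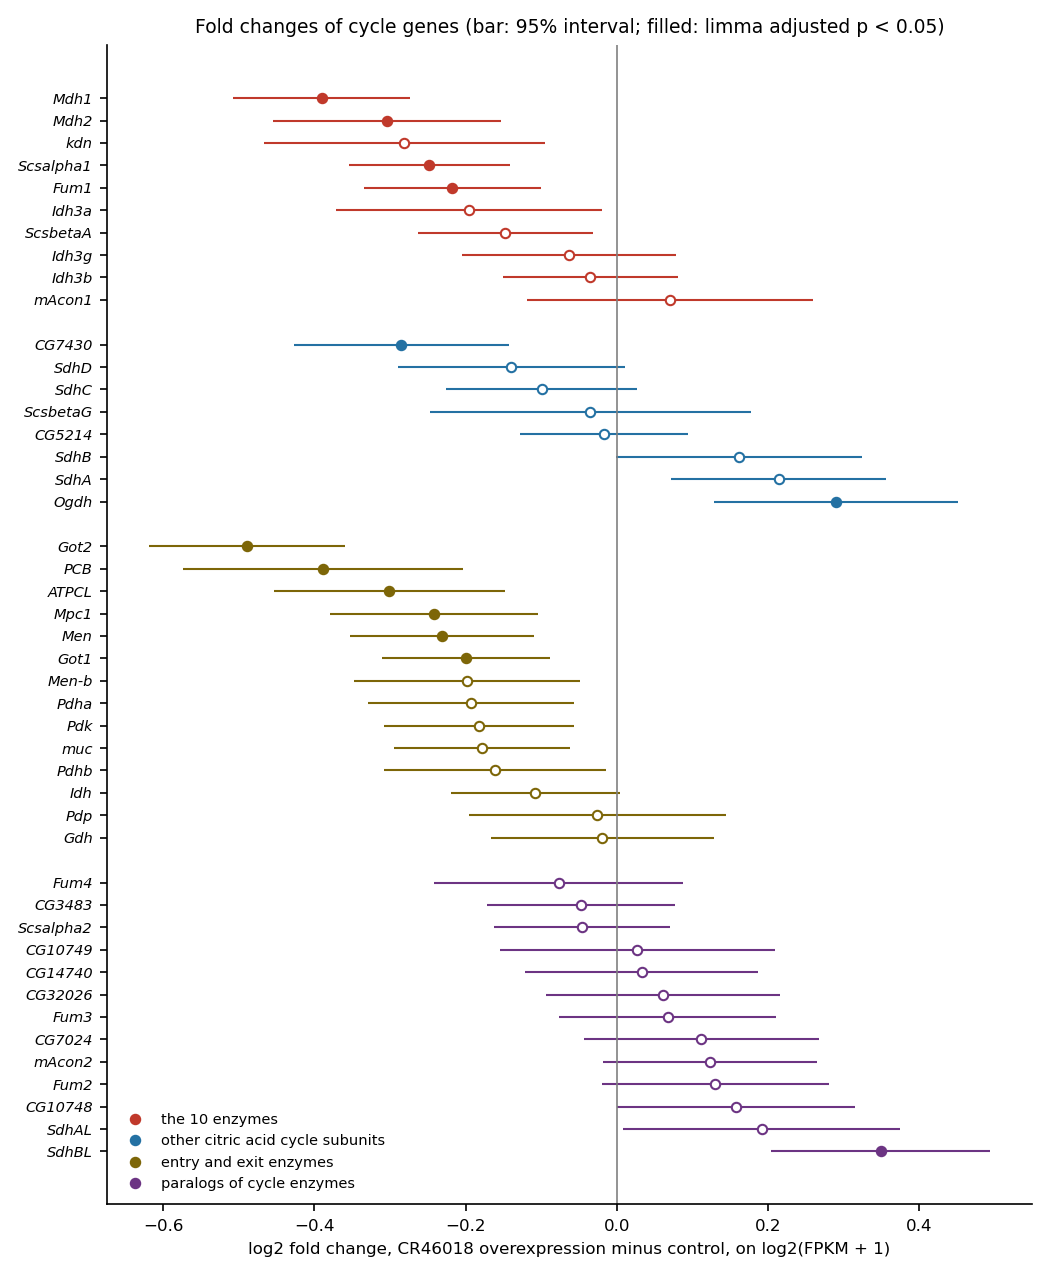
Log2 fold change (overexpression minus control, on log2(FPKM + 1)) of the 10 enzyme genes and of the 3 other lists of the pathway, with the 95% interval of the limma fit as a bar and a filled point where the limma adjusted p was under 0.05. The 14 tested entry and exit enzymes all lie left of 0, the 10 enzymes run from -0.39 for Mdh1 to 0.07 for mAcon1, and the other subunits and the paralogs lie on both sides. Of all 12251 genes tested, 6197 lay below 0. At a common FPKM total, which is not drawn, Pdp was at 0.065 and Gdh at 0.0755.

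Of 14 listed paralogs of cycle enzymes, 13 were tested, 1 rose and none fell, with a median log2 fold change of 0.07. Over all genes tested, 2.45% were called higher and 6.31% lower, so with 13 genes these counts do not set the paralogs apart. The one that rose was SdhBL, a paralog of SdhB, at 44.7, 43.5 and 48.3 FPKM in controls and 54.8, 60.6 and 59.2 FPKM in overexpression. Its log2 fold change was 0.35 ± 0.06 (SE; limma adjusted p = 0.0139), and the call was lost without control replicate 1 (adjusted p = 0.052), control replicate 2 (0.0516) or overexpression replicate 3 (0.0576). The other 12 ranged from -0.08 for Fum4 to 0.19 for SdhAL. CG33791 was listed at 0 in all 6 libraries.

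The 10 genes lie on 4 chromosome arms, 3 on X, 2 on 2L, 1 on 3L and 4 on 3R. Of the 4 that fell, Fum1 is on X, Mdh1 on 2L, Scsalpha1 on 3L and Mdh2 on 3R. Over all tested genes of those arms the median log2 fold change was between -0.0063 and 0.0082, and 5.75% to 6.86% were called lower.

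Some markers of muscle, fat body and hemocytes fell as well, against 6.31% of all genes tested called lower. Among genes with mean levels in the range of the 10 enzymes, that share was 19.7%. None of the tested testis or neuron markers fell, which is near the 6.31% share for lists this small. Of 16 muscle markers, 6 fell, 10 did not pass, none rose and the median log2 fold change was -0.27. The fold change was above 0 in 2 of the 16, and the groups overlapped in 6. Those with the smallest p were the myosin light chain Mlc2 (-0.69, limma adjusted p = 0.00646), the troponin C gene TpnC4 (-0.57, 0.00788), the tropomyosin gene Tm2 (-0.46, 0.0333) and the myosin light chain Mlc1 (-0.38, 0.0404). At a common FPKM total 2 of the 16 were called lower, with Tm2 (adjusted p = 0.0638) and Mlc1 (0.0785) no longer among them. Leaving out control replicate 1 gave 3 muscle markers lower, leaving out control replicate 2 or any 1 overexpression library gave 2, and leaving out control replicate 3 gave 8. Summed over the muscle list, the level ran from 3376.6 to 4057.1 FPKM in controls and from 2820.4 to 3098.2 FPKM in overexpression, 78.4% of control, against 88.4% for the 10 enzyme genes. Fat body markers were lower still. Of 7 listed, 5 were tested and 4 fell: FASN1 for fatty acid synthase (-0.91, limma adjusted p = 0.00191), the lipoprotein gene apolpp (-1.76, 0.00478), the lipid transfer gene Mtp (-0.49, 0.0107) and the perilipin gene Lsd-1 (50.1% of control, 0.0111). Summed over all 7 listed fat body genes, the level was 321.5 to 413.6 FPKM in controls and 139.2 to 188.2 FPKM in overexpression, 47.9% of control.

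Among 4 hemocyte markers, NimC1, a receptor for phagocytosis (-0.84, limma adjusted p = 0.00172), and the scavenger receptor gene Sr-CI (-0.77, 0.0415) fell, and the sums were 48.2 to 49.7 FPKM in controls and 27.4 to 42.7 FPKM in overexpression. The Sr-CI call was lost at a common FPKM total (adjusted p = 0.0557) and without control replicate 1 (0.0944), 2 (0.107) or 3 (0.0959) or overexpression replicate 2 (0.078). None of 11 tested testis markers (of 12 listed) and none of 8 neuron markers passed, against 8.76% of all genes tested. Their median log2 fold changes were 0.02 and 0.01. Sums over all listed genes overlapped between the groups, 1598.5 to 1759.0 against 1602.0 to 1746.9 FPKM for testis and 95.5 to 102.2 against 93.1 to 105.2 FPKM for neurons. No marker was at 0 in every library. The part of the muscle, fat body and hemocyte markers in the enzyme results was not tested.

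**Figure D5:**
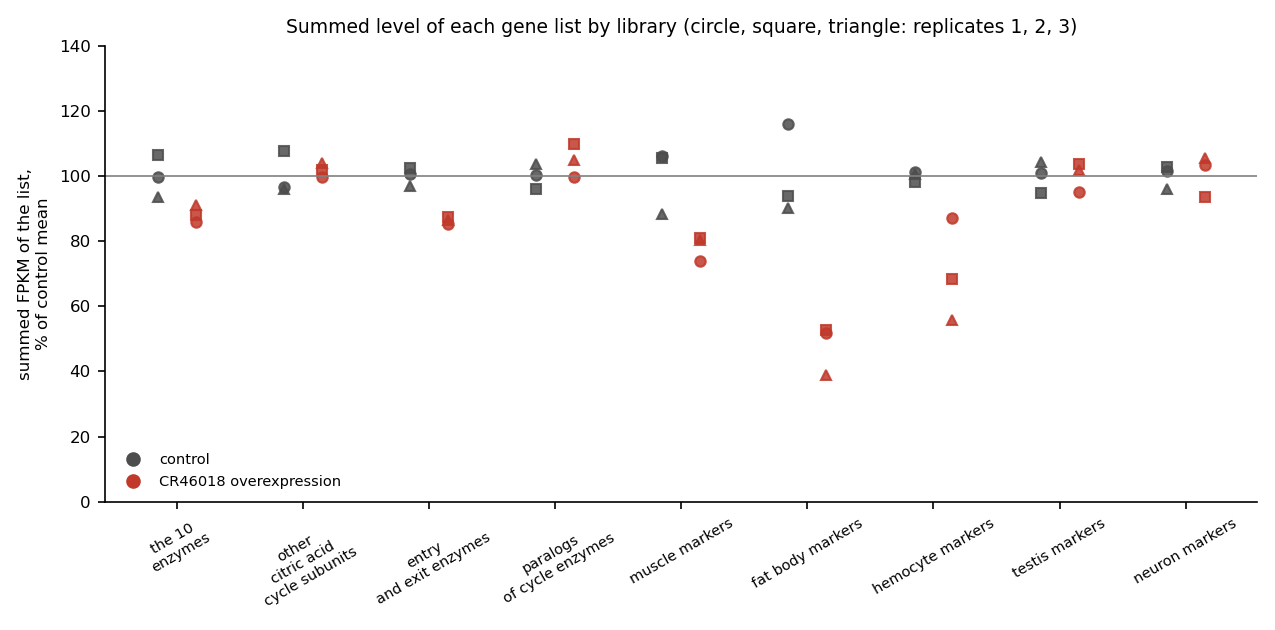
Summed FPKM of each gene list in each library, as a percentage of the control mean of that list (axis from 0; control grey, overexpression red, a symbol for each replicate). The 10 enzymes, the entry and exit enzymes and the muscle, fat body and hemocyte markers have all overexpression points under all control points, with group means of 88.4%, 86.4%, 78.4%, 47.9% and 70.3%, whereas the other subunits (101.9%), paralogs (104.8%), testis markers (100.2%) and neuron markers (100.9%) overlap.

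Libraries of a group also differed among themselves. Averaged over the 10 genes, the deviation from the control mean on the log2 scale was 0.0003, 0.0842 and -0.0846 in control replicates 1 to 3 and -0.2165, -0.1848 and -0.1419 in overexpression replicates 1 to 3. Control replicate 3 was the lowest control for all 10 genes. The 5 genes outside all lists, of 6628 with a mean of at least 10 FPKM, whose centred pattern over the 6 libraries was nearest to the mean pattern of the enzymes were Cyt-c1, lncRNA:CR43196, UQCR-C2, Sps2 and CG2924. Their root mean square distances were 0.0153 to 0.0225 on the log2 scale. Cyt-c1 and UQCR-C2 encode subunits of respiratory complex III. Cyt-c1 was at 349.7, 371.3 and 335.9 FPKM in controls and 303.2, 309.9 and 326.6 FPKM in overexpression, and UQCR-C2 at 421.7, 448.7 and 410.4 against 372.8, 384.9 and 391.8 FPKM. Neither passed the test (limma adjusted p = 0.121 and 0.129). Among the enzymes themselves, ScsbetaA (0.0275) and Fum1 (0.0332) lay nearest to the mean pattern and mAcon1 (0.135) and Mdh1 (0.1122) farthest from it.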

How the data were processed

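RNA of flies in 2 groups of 3 libraries was analysed, with groups taken from the sample titles and described by the genotype labels. Per the labels' protocols, the authors purified mRNA on poly(T) beads, sequenced paired ends, aligned them with HISAT2 2.0.5, counted reads per gene with featureCounts 1.5.0-p3 and tested with DESeq2; the build was dm6 per the submitters' processing notes. The deposited values are FPKM, 1 column per library. For the conversion to FPKM, the annotation release and the strand setting nothing is stated in these sources, and the fold changes inherit that scaling.

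The 10 enzymes and all lists (other cycle subunits, entry and exit enzymes, paralogs, and muscle, fat body, hemocyte, testis and neuron markers) were chosen with earlier results of these data known. The main test was limma 3.58.1 (R 4.3.3; lmFit, then eBayes with a trend; two-sided) on log2(FPKM + 1) of genes averaging 1 FPKM or more, which understates the change of low genes, with Benjamini-Hochberg adjustment over all 12251 genes at 0.05. No set test was run. The genes named are the 10 enzymes, the pathway lists, up to 4 called markers per list and the 5 genes of most similar pattern.

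FPKM was multiplied by exonic length (Ensembl 115, same assembly) and divided by the value of 1 read. That value was inferred from the deposited values of each library (48.607 to 57.091 FPKM times bp). The result was whole reads, within 0.01 reads, in all libraries for 97.6% of 15683 genes. For the rest a length giving whole reads was searched for. Limma-voom on the recovered reads was an alternative. Of the table's identifiers, 17252 had a current symbol and 306 had none, of which 179 were named by exonic length. Coordinates are of dm6 and 1-based. Precision is limited by 3 libraries per group. The fit was tested on simulated data. Alternatives were pseudocounts of 0.1 and 5, no filter and a mean FPKM of at least 5, a common FPKM total, equal quantiles, median-of-ratios scaling, limma-voom, eBayes without trend, the replicate number as a block, and each library left out.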

Additional observations from a re-analysis of the deposited data

How the results depend on the processing

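Of the 16 alternatives, the larger moves of a count of the enzyme genes, of all genes or of a list are given here. Moves of a call or a sign of the enzyme genes are given as well. Smaller moves of counts are given only in part, so a setting left out need not leave a count unchanged. At a common FPKM total, with equal quantiles, without a trend and with a replicate block, the enzyme genes called lower numbered 1, 1, 2 and 1 instead of 4; with 1 library left out they numbered 1 to 4. Over all genes, a common total gave 826 higher and 484 lower, limma-voom gave 485 higher, and leaving out a library gave 135 to 286 higher and 428 to 628 lower. Among the entry and exit enzymes called lower, 6 as reported, a common total, equal quantiles, no trend and the block each gave 2. No filter gave 5, median-of-ratios scaling 4, limma-voom 10, and leave-outs 1 to 4. Among the other subunits, those called higher were 0 with no filter, without trend or with the block, 2 at a common total or with limma-voom, 3 with equal quantiles, and 0 to 2 with a library left out; those called lower were 0 under the 4 settings and 0 to 1 with a library left out. Called paralogs ranged from 0 to 1 with a library left out. Muscle markers called lower, 6 as reported, were 2 with no filter, at a common total or without trend and 3 with equal quantiles. They were 4 with the block, 5 with median-of-ratios scaling and 9 with limma-voom. Fat body markers called lower, 4 as reported, were 5 at a mean FPKM of at least 5, with limma-voom or with the block. Hemocyte markers called lower, 2 as reported, were 1 in 8 alternatives and 3 with limma-voom or without overexpression replicate 1. In 4 alternatives 1 testis marker was called higher.

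Log2 fold changes that lost their call were -0.153 (common total), -0.161 (equal quantiles) and -0.248 (block) for Scsalpha1; -0.122, -0.128, -0.217 (no trend) and -0.217 (block) for Fum1; and -0.208, -0.189, -0.304 (no trend) and -0.304 (block) for Mdh2. With a library left out, calls kept or lost, the values ran from -0.27 to -0.236 for Scsalpha1, from -0.238 to -0.18 for Fum1 and from -0.357 to -0.247 for Mdh2. For kdn, which passed with limma-voom at -0.282, they ran from -0.366 to -0.237. Signs turned for Idh3b (0.06 at a common total and with equal quantiles), Idh3g (0.031, common total), ScsbetaG (0.057, common total; -0.116 to 0.048 with a library left out), CG5214 (0.078, common total; 0.072, equal quantiles; -0.039 to 0.006 with a library left out) and SdhC (0.023, equal quantiles). The cause of these changes was not tested. None of the tested ratios changed direction in its 8 alternatives. Same-numbered libraries did not deviate together, with r of 0.046, -0.076 and 0.026 across genes, which are not independent replicates. Libraries were therefore not treated as pairs. The labels do not say whether same-numbered samples belong together, and these values cannot exclude it. With the replicate number as a block, 219 genes were higher and 616 lower. Reads per enzyme gene and library numbered 3658 or more. The shares of counting error and of differences between libraries in the spread were not tested.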
